A study of Saccharomyces cerevisiae with 24 samples.

Results

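Gene overexpression was scored in 4 diploid strains of Saccharomyces cerevisiae by sequencing plasmid barcodes. Of the 4871 barcode rows, 78 were chosen by a rule on these same counts. It picks genes that rose in 0.7 M NaCl in the oak strain YPS128 but not beyond a set limit in the vineyard strain BC187. Each cell carried a plasmid of the MoBY 2.0 library, which is kept at high copy by its 2-micron origin and bears an S288C gene between its own flanks plus an identifying barcode. The 4 backgrounds were YPS128 (North American lineage), BC187 (Wine/European), NCYC3290 (West African) and the laboratory strain BY4743, which is homozygous for deletions in HIS3, LEU2 and URA3 and heterozygous at LYS2 and MET15. Each strain was sampled after 10 generations (generation 10) and before outgrowth (generation 0), with 3 replicates of each, giving 24 samples in 8 groups. The labels list 0.7 M NaCl for both time points. No group here was grown for 10 generations without NaCl, so effects of the salt and of growth in the medium cannot be told apart. All groups shared rich YPD medium with G418, which selects for the plasmid, and each strain's samples came from 1 pooled library of transformants. A barcode count reports the plasmid's share of the culture, so growth of the cells and plasmid copies per cell cannot be told apart.

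NaCl imposes an osmotic and an ionic stress on yeast. Cells respond to the first by making glycerol under control of the HOG (high osmolarity glycerol) kinase pathway and to the second by pumping out Na+ and by adjusting K+ uptake, the vacuole and the composition of membranes. Ergosterol, the main yeast sterol, and the phospholipids set the properties of the plasma membrane through which ions leak, and messenger RNAs that stop being translated under stress collect in P-bodies and stress granules.

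Members were selected on fitness scores in YPS128 and BC187. A score is the log2 ratio between a generation 10 value and the average generation 0 value of that strain, in RPM (reads scaled to 1000000) with 1 added to both. The total behind the RPM left out the 25 rows that exceeded 50000 reads in any sample. These rows held 83.5% to 91.8% of the reads of the YPS128 generation 10 samples and 89.1% to 95.7% of those of NCYC3290, against 3.59% to 4.14% in BC187 and 1.14% to 1.26% in BY4743. The reads left for all other rows numbered 1679115 to 5010411 in YPS128, 13877769 to 17680136 in BC187, 501261 to 1868859 in NCYC3290 and 11962164 to 18609776 in BY4743 at generation 10. Of the 3578 rows with a mean of at least 50 RPM at generation 0 in both YPS128 and BC187, 134 scored 0.8 or higher in each of the 3 YPS128 generation 10 samples (3.75%). BC187 scored 0.5 or higher in 56 of them, which left 78 members. With the total of all reads in place of the reduced total, 2 rows, GLC7 and YMR155W, would have met the rule, so a high score here means a rise relative to the plasmids outside the dominant few.

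No gap separated members from other rows at the limits. Just inside the YPS128 limit, the lowest single-sample scores were 0.81 in YER137C, 0.81 in YBR072C-A and 0.81 in RPL38, and just outside it they were 0.79 in CNL1, 0.79 in CAB4 and 0.78 in ORC2. On the BC187 side, RPL38, ELP3 and PUP2 had the highest scores among members, 0.47, 0.43 and 0.42, and ELM1, KSP1 and ICE2 were the nearest rows left out, at 0.50, 0.51 and 0.52. All values of YPS128 and BC187 below were used in choosing the members and are given as a description, with no test.

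**Figure D1:**
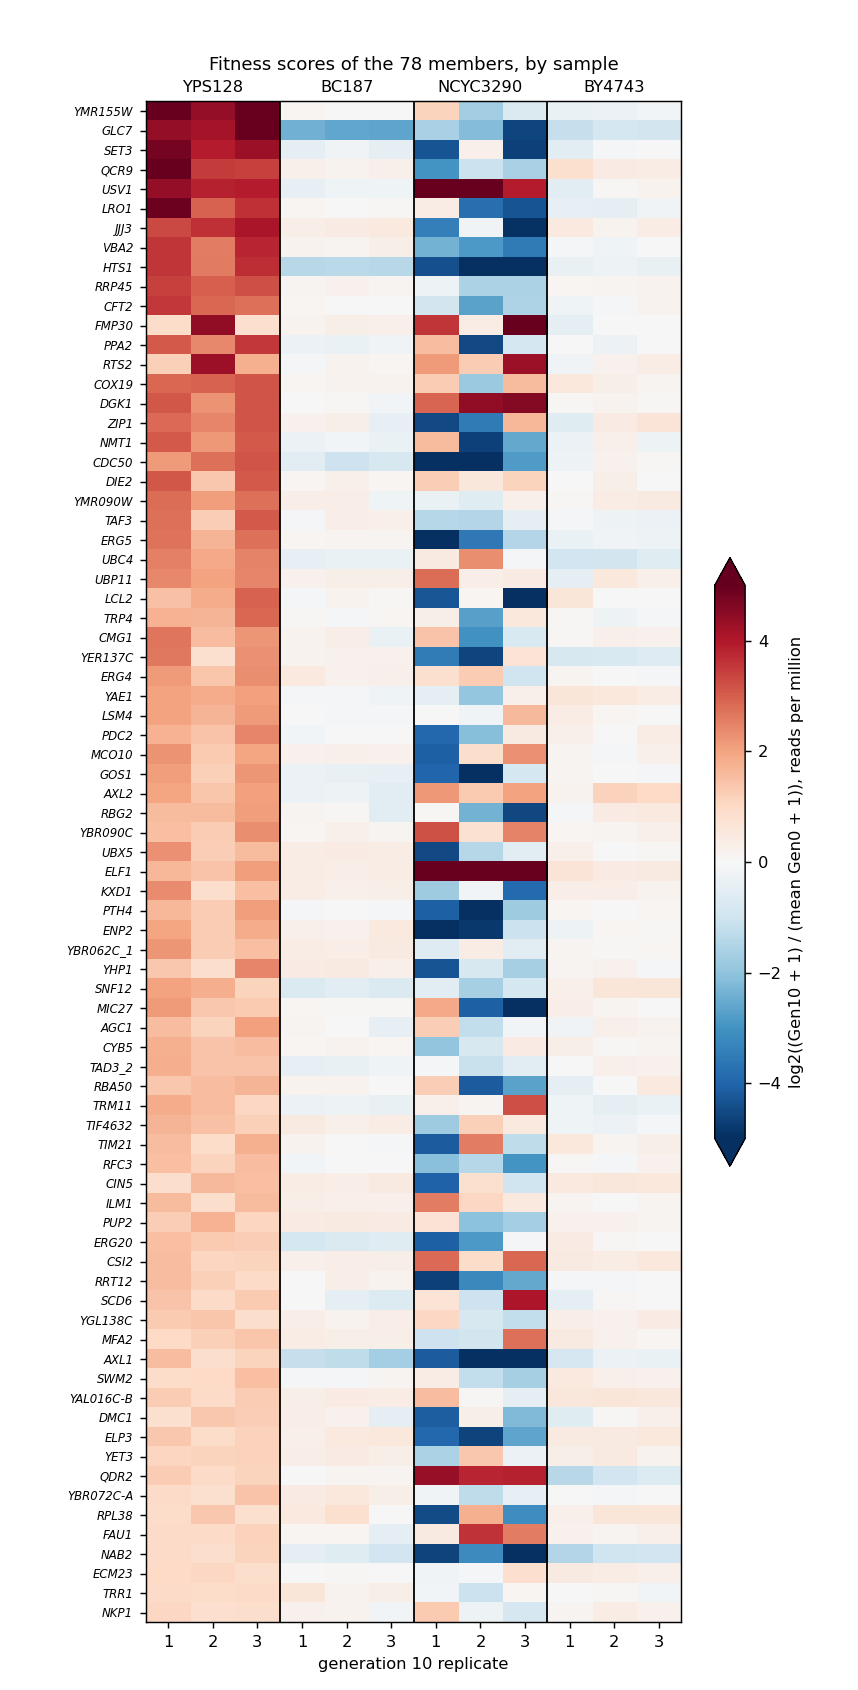
Fitness scores of the 78 members (one per line) in the 12 generation 10 samples, 3 replicates for each of the 4 strains. The colour is the log2 ratio of generation 10 to the mean of generation 0 in RPM with 1 added, red for higher and blue for lower, and the scale is clipped at 5 on either side. YPS128 columns are red by selection, BC187 and BY4743 columns are pale, and NCYC3290 holds both strong reds, such as ELF1, and strong blues, such as HTS1.

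The largest YPS128 scores belonged to genes of unlike function. YMR155W, a gene of no assigned function, had 12181, 5108 and 8810.0 RPM at generation 10, against 228, 255 and 248 at generation 0. GLC7, the essential catalytic subunit of type 1 protein phosphatase, had 4491, 3852 and 7741 RPM at generation 10, against 201, 234 and 208 at generation 0. SET3, which encodes the defining subunit of a histone deacetylase complex, had 2950.5, 1625 and 2162 RPM at generation 10, against 107, 103 and 112 at generation 0. In these 3 genes every generation 10 sample was at least an order of magnitude above every generation 0 sample. QCR9, a subunit of complex III of the respiratory chain, had 10535, 3526 and 3311 RPM at generation 10, against 288, 329 and 312 at generation 0, and its first replicate stood above the others. USV1, a putative zinc-finger transcription factor linked to the salt response and to growth on non-fermentable carbon, scored 4.38, 3.83 and 3.91. LRO1, the acyltransferase that turns diacylglycerol into storage triacylglycerol, scored 4.88, 2.94 and 3.64. JJJ3, a DnaJ-domain protein of diphthamide synthesis, scored 3.31, 3.64 and 4.08, and VBA2, a vacuolar permease of basic amino acids, 3.59, 2.57 and 3.82. HTS1, the histidyl-tRNA synthetase of cytoplasm and mitochondria, scored 3.56, 2.60 and 3.68. RRP45, a core subunit of the RNA exosome, scored 3.44, 2.99 and 3.22, and CFT2, a subunit of the mRNA cleavage and polyadenylation factor, 3.52, 2.88 and 2.75. PPA2, the mitochondrial pyrophosphatase, scored 3.06, 2.40 and 3.52.

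Agreement between the YPS128 replicates differed from member to member. The SD over the 3 samples was widest in FMP30, a mitochondrial inner membrane protein tied to cardiolipin levels, which had 291, 3341 and 279 RPM at generation 10, against 145, 155 and 159.8 at generation 0 and so rested on 1 high sample. RTS2, a zinc-finger protein like mammalian Kin17, had a similar pattern, with 729, 6205 and 1091 RPM at generation 10, against 251, 353 and 361 at generation 0. TRR1, the cytoplasmic thioredoxin reductase, was the tightest, with scores of 0.94, 0.93 and 0.94. The second replicate, the most deeply sequenced of the 3, had the lowest median score of the members, 1.41. Without the second sample 162 rows would have met the rule, all 78 members among them.

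In BC187 most members were near their starting share, with scores within 0.5 of 0 in 71 of 78 (91.0%, against 67.9% of all rows kept). The rule fixed the upper side of this range. The limit of 0.5 let small rises in. Scores above 0 were held by 52 members (66.7%, against 49.0% of all rows kept), and the highest was 0.47. The lowest was GLC7, with 42.5, 37.3 and 36.9 RPM at generation 10, against 214, 218 and 264 at generation 0, so the phosphatase plasmid that gained most ground in YPS128 after YMR155W lost ground in each BC187 sample. HTS1 (-1.38 ± 0.02, SD, n = 3) and AXL1 (-1.37 ± 0.28), the protease that matures the a-factor pheromone, were the other members below -1. They were followed by CDC50 (-0.80 ± 0.23), the partner of a phospholipid flippase, and ERG20 (-0.73 ± 0.13), the farnesyl pyrophosphate synthase at the head of the sterol branch.

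By function, as annotated, the members formed no single pathway. Transcription and chromatin held 9 members, which were USV1, SET3, ELF1 (a transcription elongation factor), CIN5 (a bZIP factor of salt tolerance), TAF3 (TFIID), SNF12 (SWI/SNF), PDC2, YHP1 and RBA50. Mitochondria and respiration held 10, among them QCR9, PPA2, FMP30, COX19 (cytochrome oxidase assembly), MIC27 (cristae), TIM21 (protein import) and AGC1 (aspartate and glutamate transport). Another 9 act on mRNA or on rRNA and snoRNA processing, including RRP45, CFT2, NAB2 (nuclear poly(A) binding), LSM4, SCD6 and TIF4632. Sterol and lipid metabolism had 7, ERG4, ERG5, ERG20, CYB5, LRO1, DGK1 and CDC50. The median YPS128 score of these groups was 1.75, 1.81, 1.47 and 2.47 in the order given. Smaller groups were mating, budding and meiosis (7 members), protein modification and translation (6), the secretory pathway (5), tRNA charging and modification (4), ubiquitin and the proteasome (4), DNA replication and chromosomes (3), small-molecule enzymes (3) and membrane transporters (2). The other 9 had no assigned function.

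NCYC3290 and BY4743 played no part in the selection and were tested. In NCYC3290, the median log2 fold change over the 4171 rows tested was -1.58 with the scaling used here (0.48 with TMM factors and 0.75 with DESeq2), and changes are also given relative to that median. The members had a median score of -0.20, against -1.47 over all rows kept, a difference of 1.27. This difference was 3.26, 1.23 and 1.17 in the 3 generation 10 samples. Of the members, 36 scored above 0 (46.2%), where 19.8% of all rows kept did, and 61 lay above the median of all rows. Scores of 0.8 or higher in all 3 samples were found for 7 members (8.97%, against 2.24% of all rows), and the 3 generation 10 values lay above the 3 generation 0 values in 14 (17.9%, against 3.72%) and below them in 25 (32.1%, against 58.7%). Scores of -0.8 or lower in all 3 samples were found for 15 members (19.2%, against 41.9%). With the same 78 members, a setting added after seeing the data, the difference was 0.94 when scaled to all reads and 1.31 with TMM-scaled totals.

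In BY4743 most members stayed close to where they began. The members' median score was 0.11, against 0.024 over all rows kept, and the difference of 0.084 was 0.075, 0.074 and 0.094 in the 3 samples. Scores lay within 0.5 of 0 in 68 members (87.2%, against 82.6% of all rows), and no member reached 0.8 in each of the 3 BY4743 samples (0.363% of all rows did). The generation 10 values lay above all generation 0 values in 29 members (37.2%, against 29.1%) and below them in 14 (17.9%, against 27.5%). No member therefore scored 0.8 or higher in all samples of both NCYC3290 and BY4743.

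**Figure D2:**
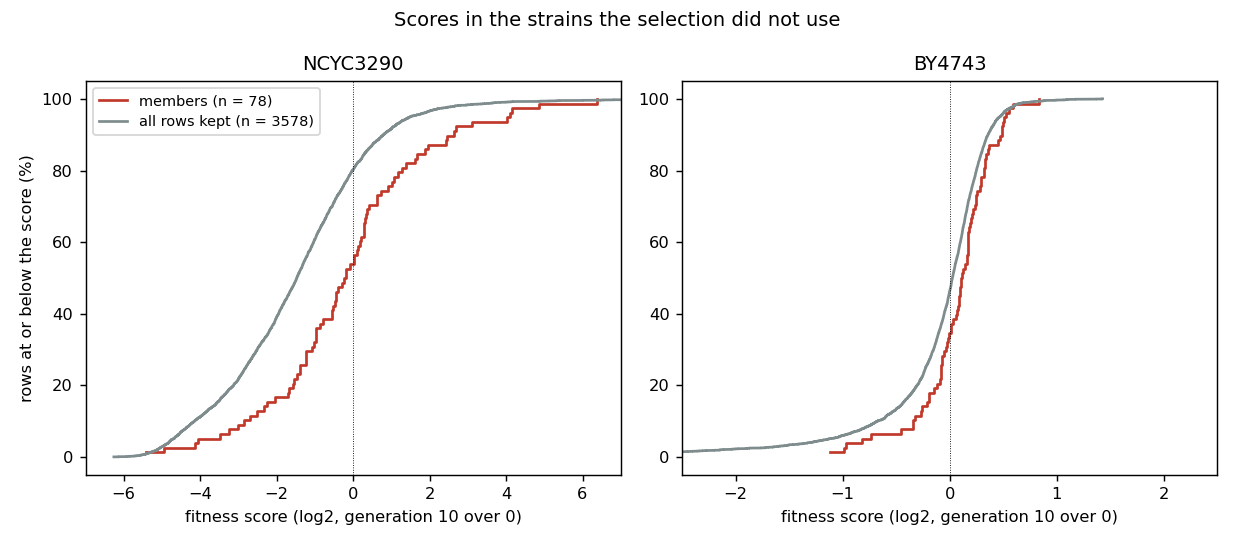
Cumulative share (in %) of the 78 members (red) and of the 3578 rows kept (grey) at or below a fitness score (log2, from the means of 3 samples) in NCYC3290 and BY4743, the strains that the selection did not use. The x axes differ in range. In NCYC3290 the members' median lies at -0.20 and that of all rows at -1.47, while in BY4743 the curves lie close together, at 0.11 and 0.024.

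Tested by edgeR in NCYC3290 alone at a false discovery rate (FDR) under 0.05, 9 members were higher at generation 10 (11.5%, where 1.89% of all rows tested were) and 7 were lower (8.97%, where 26.1% were). At an unadjusted p under 0.05, 21 of the 78 passed (26.9%, against 36.4% of all rows kept). Among the members ELF1 rose most, to 39616, 16973 and 39152 RPM at generation 10, against 384, 378 and 386 at generation 0 (log2 fold change 6.38, SE 0.72, FDR = 0.0063). It was the only member among the 25 dominant rows, and in YPS128 it had 969, 826 and 1336 RPM at generation 10, against 279, 336 and 312 at generation 0. The gene (R64 chromosome XI, 153269 to 153706, plus strand) encodes an elongation factor tied to chromatin structure in transcribed regions. It was also the single member called higher in NCYC3290 when the libraries were scaled to all reads.

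USV1 was high at generation 10 in both YPS128 and NCYC3290. In NCYC3290 it had 4959, 4102 and 1893 RPM at generation 10, against 126, 131 and 115 at generation 0 (log2 fold change 4.88, SE 0.69, FDR = 0.0063). Every generation 10 value was more than an order of magnitude above the generation 0 values. In BY4743 the values overlapped, with 77.5, 116 and 125 at generation 10 and 116, 112 and 109 at generation 0 (log2 fold change -0.07, FDR = 0.78), and in BC187 the generation 10 values, 211, 241 and 242, lay below the 296, 277 and 277 of generation 0. Among the 12 members highest by the mean of their 3 YPS128 scores, USV1 was thus the only one also called higher in NCYC3290. By the score from the means, FMP30 (3.08), which was called higher too, stood above PPA2 (3.06).

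Since the plasmids carry each gene with its own upstream sequence, the 500 bases before the start codon were searched on both strands in the R64 RefSeq genome for AGGGG, the stress response element (STRE) bound by the general stress factors Msn2 and Msn4, and for TGACGT, the core of the cyclic AMP response element (CRE) bound by the Hog1 target Sko1. AGGGG was found before 19 of 77 annotated members (24.7%), against 34.4% of 3537 genes searched, and TGACGT before 9 (11.7%, against 13.2%). Of the 9 members higher in NCYC3290, USV1 held 4 STRE matches and DGK1 and YBR090C 1 match each, of CRE and of STRE. They are printed on the gene's strand with 10 flanking bases and the match, in either orientation, in capitals, because these 3 of the 9 members held a match.
USV1, chrXVI:114806-114830: gtgtgagccaCCCCTtgatcgcctc
USV1, chrXVI:114962-114986: ccgttgagtcCCCCTaagggcctta
USV1, chrXVI:114982-115006: ccttatttatCCCCTctattttttt
USV1, chrXVI:115045-115069: tcacggcttcCCCCTtaaccgttca
DGK1, chrXV:900338-900363: aagagacaatACGTCAagcaattctt
YBR090C, chrII:427446-427470: aaatagtctaAGGGGcaaccaggag
The USV1 matches end 491, 335, 315 and 252 bases before the start codon. The DGK1 match ends 419 bases before it. The second and the third USV1 windows overlap. A match describes the letters alone and says nothing of binding.

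DGK1, the diacylglycerol kinase of the endoplasmic reticulum (R64 chromosome XV, 899056 to 899928, minus strand), had 3826, 10916 and 12271 RPM at generation 10, against 497, 495 and 531 at generation 0 in NCYC3290 (log2 fold change 4.15, SE 0.70, FDR = 0.0066). Its YPS128 values, 4646, 2501 and 4729 at generation 10 against 535, 509 and 554 at generation 0, were higher in each sample too, while those of BC187 and BY4743 stayed between 383 and 459 at generation 10. The kinase makes phosphatidic acid from the diacylglycerol that LRO1 consumes, and LRO1, with a YPS128 score of 3.82 ± 0.98, scored 0.39, -3.78 and -4.32 in NCYC3290 (FDR = 0.57). For LRO1, 1 sample of NCYC3290 lay above its start and the others far below.

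QDR2, a plasma membrane drug:H+ antiporter that also carries monovalent and divalent cations (R64 chromosome IX, 132244 to 133872, plus strand), had 4160.0, 2857 and 2938 RPM at generation 10, against 211, 241 and 162 at generation 0 in NCYC3290 (log2 fold change 4.02, SE 0.61, FDR = 0.0063). Its YPS128 rise was modest, 527, 417 and 465 against 198, 193 and 256. In BY4743 the direction was opposite, with 68.1, 91.8 and 113 RPM at generation 10, against 191, 178 and 176 at generation 0 (FDR = 0.004). QDR2 was the only member higher in NCYC3290 and lower in BY4743.

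The other 5 rises in NCYC3290 were smaller or rested on fewer samples. FMP30 had 1673, 179.5 and 5283 RPM at generation 10, against 131, 156 and 128 at generation 0 (FDR = 0.036). RTS2 had 730.1, 401 and 3215 RPM at generation 10, against 158, 177 and 162 at generation 0 (FDR = 0.039). In both genes 1 generation 10 sample stood far above another, and in YPS128 too 1 sample carried most of the rise. YBR090C, of no assigned function, had 2281, 427 and 1412 at generation 10 against 255, 245 and 246 (FDR = 0.046), CSI2, a protein of the bud neck and vacuole, 1954, 529 and 2003 against 271, 293 and 265 (FDR = 0.039), and AXL2, which marks the axial bud site, 1396, 774 and 1261 against 323, 293 and 319.8 (FDR = 0.049). ELF1, USV1, DGK1 and QDR2 passed with any 1 of the 6 libraries left out. The other 5 lost the call without any 1 of the 3 generation 0 libraries (FDR between 0.12 and 0.25), FMP30 also without the first or the third generation 10 library (0.063 and 0.069) and YBR090C without the first (0.057).

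**Figure D3:**
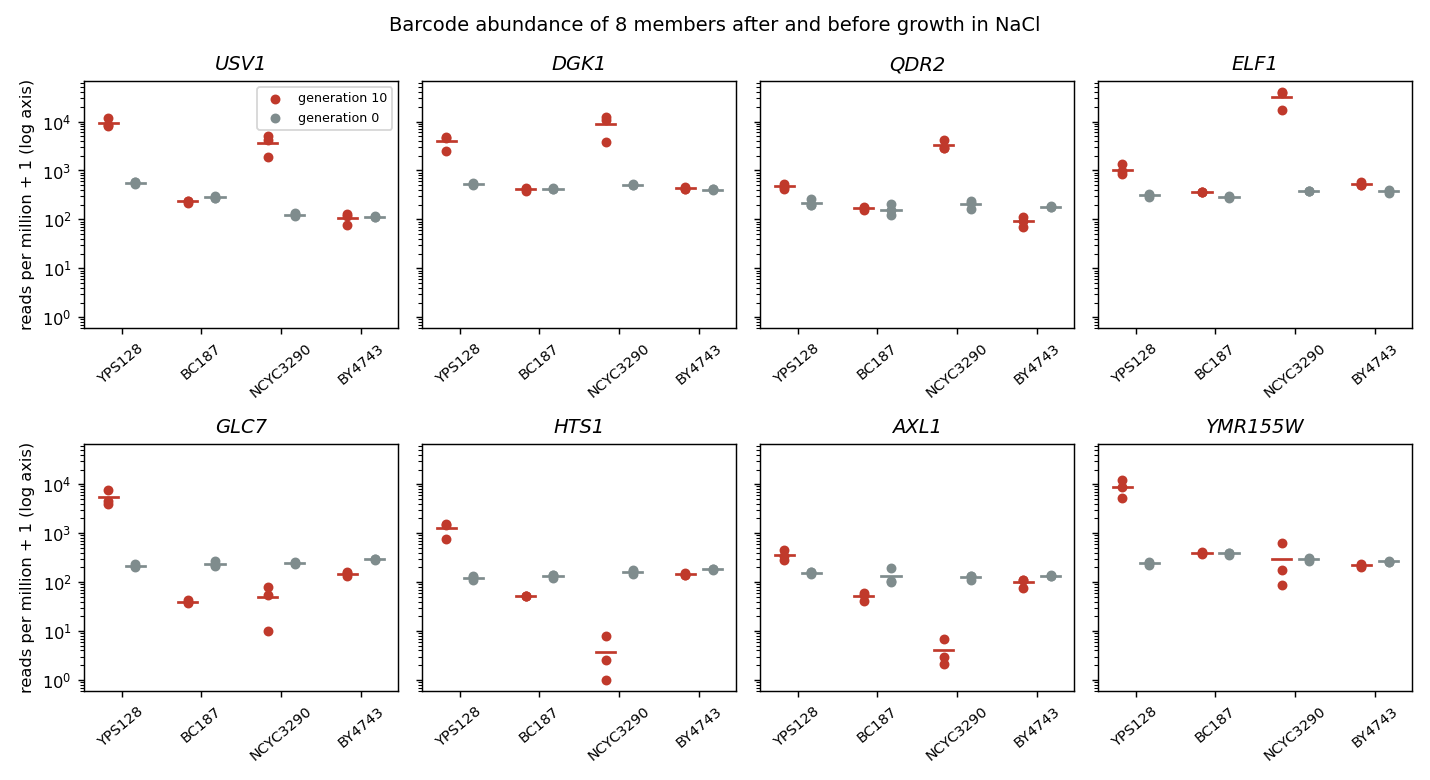
RPM (1 added, log axis) of 8 members in the 4 strains, with generation 10 (red) left of generation 0 (grey). Points are the 3 samples and bars their means. USV1 and DGK1 are high at generation 10 in YPS128 and NCYC3290, QDR2 and ELF1 are far higher in NCYC3290, and HTS1 and AXL1 are high in YPS128 and nearly lost from NCYC3290.

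Members that fell in NCYC3290 did so strongly. HTS1 had 6.76, 0 and 1.61 RPM at generation 10, against 164, 173 and 145 at generation 0 (log2 fold change -5.71, SE 1.15, FDR = 0.0097), and the 0 came from the shallowest library, where 3 reads equal 5.98 RPM. AXL1 had 6.01, 1.99 and 1.07 RPM at generation 10, against 131, 132 and 108 at generation 0 (log2 fold change -5.32, SE 0.94, FDR = 0.0068). NAB2 had 12.8, 35.9 and 5.89 RPM at generation 10, against 344, 331 and 332 at generation 0 (log2 fold change -4.25, SE 0.92, FDR = 0.013). No generation 10 value of these genes came near a generation 0 value. The flippase partner CDC50 fell by 4.10 on the log2 scale (SE 1.11, FDR = 0.03), ELP3, the catalytic subunit of the Elongator complex that modifies tRNA wobble bases, by 3.53 (SE 0.84, FDR = 0.018), RRT12, a probable protease of spore wall formation, by 3.31 (SE 0.84, FDR = 0.023), and VBA2 by 3.14 (SE 0.64, FDR = 0.01). Relative to the median of all rows, these 7 changes ranged from -4.13 in HTS1 to -1.55 in VBA2, and the 9 rises from 3.46 in AXL2 to 7.96 in ELF1. With TMM factors the median of all rows was 0.48 instead of -1.58. All 9 rises kept their call there, and of the falls only AXL1 did. Without the second generation 0 library AXL1 and HTS1 kept their call, and without the first or the third VBA2 did too, CDC50 losing its call also without the first generation 10 library (FDR = 0.061).

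**Figure D4:**
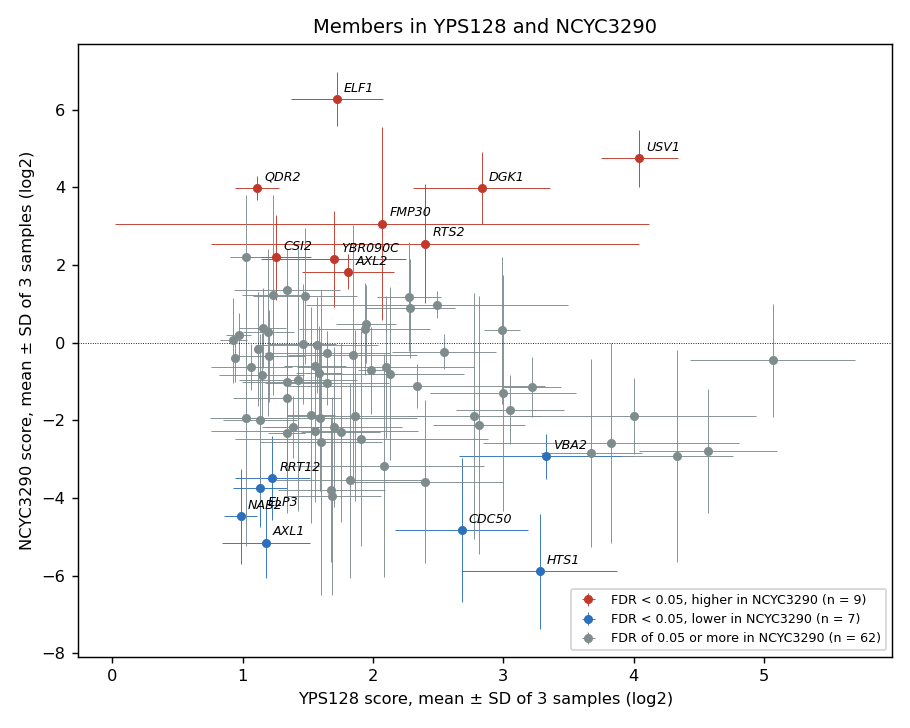
Mean fitness score of each member in YPS128 (x axis) and NCYC3290 (y axis), both log2, with bars of 1 SD over 3 samples. Colours give the call in NCYC3290 at FDR under 0.05, red for the 9 members that were higher, blue for the 7 that were lower and grey for the other 62. Members with a like YPS128 score, such as USV1 and QCR9, lie far apart in NCYC3290.

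The functional groups did not move as blocks in NCYC3290. Of the 9 transcription and chromatin members, ELF1 and USV1 rose and none fell. Of the 7 sterol and lipid members, DGK1 rose and CDC50 fell. In the mating, budding and meiosis group AXL2 and CSI2 rose while AXL1 and RRT12 fell, and both transporters changed, QDR2 upward and VBA2 downward. HTS1 and ELP3 fell among the 4 tRNA genes and NAB2 among the 9 mRNA and snoRNA genes. Among the 10 mitochondrial members FMP30 rose. No secretory, ubiquitin, small-molecule enzyme or protein modification member was called, though their scores in single samples ranged widely, as in NMT1, the N-myristoyl transferase, with 1.58, -4.65 and -2.56.

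Several of the strongest YPS128 members had no call in NCYC3290. GLC7 had 79.6, 53.9 and 9.1 RPM at generation 10, against 261, 232 and 239.6 at generation 0 there (FDR = 0.093), lower in each sample. YMR155W had 628, 85.8 and 176 RPM at generation 10, against 295, 271 and 305 at generation 0 (FDR = 0.98), with 1 sample above and the others below the start. SET3 had 9.77, 251 and 7.49 RPM at generation 10, against 215, 208 and 217 at generation 0 (FDR = 0.52), where the second sample alone was above its start. QCR9 scored -2.97, -1.09 and -1.60, RRP45 -0.24, -1.57 and -1.57 and CFT2 -0.92, -2.69 and -1.55, all below 0. Some members without a call scored above 0 in every sample. They included DIE2, a glucosyltransferase of the endoplasmic reticulum (1.24, 0.58 and 1.13), ILM1 (2.54, 1.03 and 0.49) and the deubiquitinase UBP11 (2.81, 0.34 and 0.41). FAU1, with 287, 2550 and 1235 RPM at generation 10 against 204, 218 and 208 at generation 0, and TRM11 were others. The a-factor gene MFA2 scored -1.02, -0.92 and 2.76 and the synaptonemal complex gene ZIP1 -4.52, -3.53 and 1.66, each with 1 high sample. The median SD over the 3 samples was 1.47 for the members in NCYC3290 and 0.15 in BY4743.

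In BY4743 22 members were called higher (28.2%, where 18.2% of all rows tested were) and 11 lower (14.1%, where 19.5% were). Of the 56 rows that met the YPS128 limit but scored 0.5 or higher in BC187, 35 were called higher (62.5%) and 4 lower (7.14%). The rises of the members ranged from 0.14 to 0.83 on the log2 scale. AXL2 was largest, with 328, 636 and 579 RPM at generation 10, against 296, 285 and 285 at generation 0 (log2 fold change 0.83, SE 0.22, FDR = 0.02), and its first replicate hardly moved. It kept its call without that library only, and lost it without any other of the 6 (FDR between 0.062 and 0.075). CIN5 was tighter, with 378, 405 and 399 RPM at generation 10, against 273, 276 and 268 at generation 0 (log2 fold change 0.53, SE 0.05, FDR = 0.0003). YAL016C-B (0.59), QCR9 (0.55), YAE1 (0.51), which helps mature the iron-sulfur protein Rli1, ELF1 (0.50), the ribosomal protein gene RPL38 (0.49), SNF12 (0.49), ELP3 (0.47) and CSI2 (0.46) completed the 10 largest log2 fold changes.

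The 11 falls in BY4743 ranged from -1.13 to -0.21. NAB2 was lowest, with 123, 169.5 and 178 RPM at generation 10, against 344, 362 and 321 at generation 0 (log2 fold change -1.13, SE 0.14, FDR = 0.00076). GLC7 followed QDR2, with 130.2, 159 and 153 RPM at generation 10, against 293, 289.7 and 288 at generation 0 (log2 fold change -0.98, SE 0.09, FDR = 0.00017), so GLC7 was down in BY4743 and BC187 and up in YPS128. UBC4, an E2 ubiquitin-conjugating enzyme of abnormal protein turnover, had 159, 162 and 201 RPM at generation 10, against 309, 299.5 and 314 at generation 0 (log2 fold change -0.82, SE 0.10, FDR = 0.00073). YER137C (-0.74), TRM11 (-0.35), a tRNA methyltransferase, LRO1 (-0.34), HTS1 (-0.33), YMR155W (-0.27), ERG5 (-0.26) and TAF3 (-0.21) made up the rest. Without the first generation 0 library the 5 largest falls, NAB2, QDR2, GLC7, UBC4 and YER137C, kept their call and the other 6 did not.

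Side by side, AXL2, ELF1 and CSI2 were called higher in both strains and HTS1 and NAB2 lower in both, while ELP3 was lower in NCYC3290 and higher in BY4743. Another 36 had no call in either strain. The shares of all rows with such joint calls were not counted, so these counts describe the members alone. The difference itself, NCYC3290 minus BY4743, was tested in 1 fit of the 12 samples, where the median of all rows was -1.48. At FDR under 0.05, 9 members were called above 0 (11.5%, where 2.57% of all rows tested were) and 10 below 0 (12.8%, where 30.7% were), and 31 of the 78 had a difference above 0 with or without a call (39.7%, against 20.7% of all rows kept). Of the 56 rows at the YPS128 limit with 0.5 or higher in BC187, 12 were called above 0 (21.4%) and 8 below 0 (14.3%). The largest positive differences were in ELF1 (log2 fold change 5.88, SE 0.53, FDR = 5.4e-05), QDR2 (5.01), USV1 (4.95), FMP30 (4.25) and DGK1 (4.04). At the other end were HTS1 (log2 fold change -5.35, SE 0.88, FDR = 0.00067), AXL1 (-4.86), CDC50 (-4.07), ELP3 (-3.98) and RRT12 (-3.23). This fit gave both strains 1 spread although the biological coefficient of variation was 0.86 in NCYC3290 and 0.13 in BY4743. With a weight for each group in limma's voom, 7 members were called above 0 and 0 below, where 15 of all rows were called below.

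**Figure D5:**
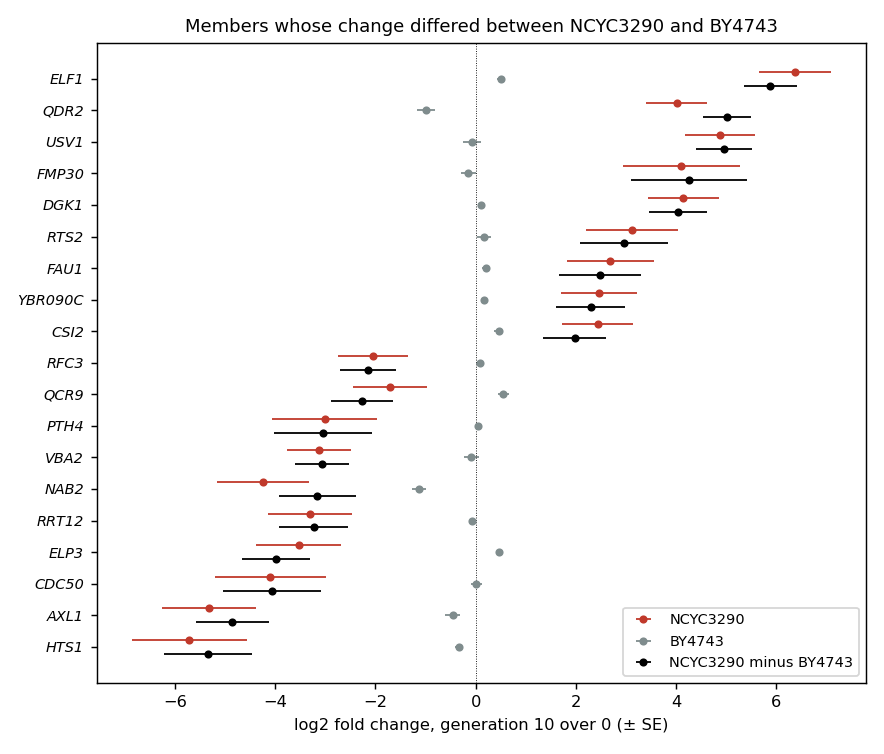
Log2 fold change of generation 10 over generation 0 for the 19 members whose change differed between NCYC3290 and BY4743 at FDR under 0.05. Points give NCYC3290 (red), BY4743 (grey) and the difference NCYC3290 minus BY4743 (black), with bars of 1 SE from edgeR. The difference is highest in ELF1, at 5.88, and lowest in HTS1, at -5.35, while the BY4743 points lie between -1.13 and 0.55.

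Of all 3578 rows kept, 2.18% were members, a share set by the rule. Ergosterol synthesis had 3 members of its 21 rows kept (14.3%), ERG4, ERG5 and ERG20, and these were all the sterol rows that reached the YPS128 limit. Most of the list went the other way in YPS128, where 14 of the 21 rows scored below 0. Their list had a median YPS128 score of -0.51, against -0.50 over all rows kept. ERG5, the C-22 sterol desaturase, had 1400.2, 695 and 1445 RPM at generation 10, against 214, 199 and 223 at generation 0 in YPS128. ERG4, which catalyses the last step, had 608, 362 and 703 RPM at generation 10, against 147, 139 and 133 at generation 0, and ERG20 had 1401, 1237 and 1154 RPM at generation 10, against 607, 441 and 445 at generation 0. None overlapped between generations in YPS128, which held for all 78 members and goes with their selection on these values. In NCYC3290 ERG5 scored -5.67, -3.59 and -1.48 and ERG4 0.79, 1.28 and -0.98, with no call for either (FDR = 0.12 and 0.58). Of the 21 sterol rows 0 were called higher and 7 lower (33.3%) in NCYC3290, where 1.89% and 26.1% of all rows were, and 4 (19%) and 5 (23.8%) in BY4743, where 18.2% and 19.5% were. CYB5, the cytochrome b5 that feeds electrons to sterol desaturation, scored 1.78, 1.44 and 1.53 in YPS128 and -1.99, -0.78 and 0.43 in NCYC3290.

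P-body and stress granule genes supplied 3 members of 41 rows (7.32%), LSM4, a subunit of the Lsm ring in mRNA decay and splicing, TIF4632, an eIF4G translation factor, and SCD6, a translation repressor that binds eIF4G. Another 6 rows of that list, EDC3, LSM3, DHH1, PAB1, SBP1 and DED1, reached the YPS128 limit but scored 0.5 or higher in BC187. The 41 rows had a median YPS128 score of 0.21, against -0.50 over all rows kept, and 20 of them scored below 0. LSM4 had 1528, 1237 and 1688 RPM at generation 10, against 368, 379 and 398 at generation 0 in YPS128, and its BC187 scores were 0.04, -0.05 and -0.05. SCD6 scored 0.67, -1.03 and 4.04 in NCYC3290, and TIF4632 had 42.1, 337 and 203 RPM at generation 10, against 142, 144 and 152 at generation 0 there. Both had samples on either side of the starting level. In NCYC3290 1 of the 41 rows was called higher (2.44%, where 1.89% of all rows were) and 16 lower (39%, where 26.1% were), and in BY4743 8 (19.5%, where 18.2% were) and 10 (24.4%, where 19.5% were).

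Ion homeostasis and halotolerance gave 1 member of 18 rows (5.56%), QDR2, while HAL5 and SIS2 reached the YPS128 limit but scored 0.5 or higher in BC187. The 18 rows had a median YPS128 score of -1.26, and 13 of them scored below 0. The control of phospholipid synthesis list gave 1 of 20, DGK1. The 95 ribosomal protein rows gave 1, RPL38. The HOG pathway and glycerol synthesis (25 rows), G1 to S entry (15), cell wall integrity (16), Ras and protein kinase A (12), the vacuolar proton ATPase (10) and cytosolic chaperones (19) had 0 members and no row at the YPS128 limit, which 3.75% of all rows reached, a share under 1 row in a list of these sizes. Calcium and calcineurin signalling (14 rows), silencing (19), Puf proteins (5) and casein kinase 2 (4) had 0 members as well, since their rows at the limit, ECM27, CRZ1, CMK2, NHP6A, PUF3 and CKA1, scored 0.5 or higher in BC187. In NCYC3290 the HOG list had 0 rows called higher and 7 lower (28%), and the ion list 3 (16.7%) and 3 (16.7%), where 1.89% and 26.1% of all rows were called.

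A few members share a locus or have a second barcode. TAD3, a subunit of the tRNA adenosine deaminase, was a member by 1 of its barcodes, with YPS128 scores from 1.41 to 1.83, while the other scored from -0.84 to 0.77. For YBR062C the member barcode scored 1.26 to 2.19 in YPS128 and the other -0.21 to 1.22. In both genes the barcodes thus fell on opposite sides of the limit. YBR090C overlaps NHP6B by 157 bases on the same strand, so a plasmid with one can hold part of the other. NHP6B was not analysed here. NHP6A, its paralog, an HMG-box chromatin protein, was left out by the rule with scores from the means of 2.40 in YPS128 and 2.63 in BC187, and it scored 2.20 in NCYC3290 and -0.94 in BY4743. TRP4, of tryptophan synthesis, and TRR1 are neighbours 488 bases apart on chromosome IV, and both were members, with 2.10 ± 0.68 and 0.94 ± 0.01 in YPS128 (SD, n = 3). Chromosome VII held the most members, 11 of its 355 rows kept, XVI held 9 of 262, and I and VI held 0 of 53 and 74. The share of members was 2.18% over all rows kept. The members' median gene length was 1038 bases, against 1122 over all rows kept.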

How the data were processed

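Per the deposited table and the study's methods, the authors purified plasmid DNA from cell pellets, added sample index tags to the barcodes during PCR, and read the pooled samples single-end over several lanes. The deposited values are raw read counts per barcode, whole numbers without normalization, for 4871 rows (4817 genes) in 24 samples, and 0 columns lacked a sample. The tool that matched reads to barcodes is not given in the sources used here. There were no molecular identifiers, so reads are not independent molecules. Groups came from the sample titles. The study describes biological triplicates, and the labels do not say how far these were separate, so p-values measure the spread between these samples.

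Counts were scaled to RPM of the total over rows that exceeded 50000 reads in no sample, after the study's own approach, and scores are log2((generation 10 + 1)/(mean generation 0 + 1)). Members and gene lists (14, plus ribosomal proteins by symbol) were chosen with earlier results of these data known. Calls come from edgeR 4.0.16 quasi-likelihood fits (R 4.3.3) on the deposited counts with that library size, filterByExpr with a minimum count of 10, and Benjamini-Hochberg adjustment over all rows of a fit. The 6 samples of a strain were fitted alone, and the 12 samples of NCYC3290 and BY4743 together for the difference between them. The standard error is the log2 fold change over the square root of F. Scripts were tested on simulated data. Alternatives were TMM factors, the total of all reads, DESeq2 1.42.0, voom of limma 3.58.1, no filter, a joint fit, a replicate block, and leaving out each sample. Named are the 12 highest YPS128 members by mean score, members called in NCYC3290, BY4743 or the difference (up to 10, 10 and 5 per direction), list members, rows at the limits and the 5 lowest BC187 members. Others, such as FMP30 in YPS128, TRR1, NMT1, CYB5, DIE2, ILM1, UBP11, MFA2, ZIP1, NHP6A and the neighbours, were chosen after their values were seen. Names, positions and sequences are from the RefSeq annotation of R64. It matched 4811 of 4817 genes and 77 of 78 members, and the motif windows start at the annotated start codon. The 13 function groups were written after the members were known.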

Additional observations from a re-analysis of the deposited data

Results flagged for a closer look

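Changes of 19 members differed between NCYC3290 and BY4743 in the test of the difference itself (edgeR, FDR under 0.05), in a fit where the median of all rows was -1.48. Positive differences, NCYC3290 minus BY4743 on the log2 scale, were 5.88 in ELF1, 5.01 in QDR2, 4.95 in USV1, 4.25 in FMP30, 4.04 in DGK1, 2.96 in RTS2, 2.48 in FAU1, 2.29 in YBR090C and 1.98 in CSI2. Negative ones were -5.35 in HTS1, -4.86 in AXL1, -4.07 in CDC50, -3.98 in ELP3, -3.23 in RRT12, -3.16 in NAB2, -3.07 in VBA2, -3.05 in PTH4, -2.27 in QCR9 and -2.15 in RFC3. Of these 10, 3 were called with TMM factors (AXL1, ELP3 and HTS1) and 0 with voom and a weight for each group. FAU1, an enzyme of folate metabolism, PTH4, a rescue factor of stalled mitochondrial ribosomes, QCR9 and RFC3, a clamp loader subunit, had no call in NCYC3290 alone (FDR = 0.054, 0.071, 0.13 and 0.064). Depth moved with the strain, since the members' median count at generation 10 was 290.0, 70.5 and 334 reads in the NCYC3290 samples and 2839.5, 3042 and 4707 in those of BY4743, and its part in these differences was not tested.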

How the results depend on the processing

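Members called in NCYC3290 numbered 9 higher and 7 lower (1.89% and 26.1% of all rows tested). TMM factors gave 14 and 1 (4.11% and 7.33% of all rows) and the total of all reads 1 and 62 (0.43% and 89.3%). DESeq2 gave 41 and 4 (20.4% and 16.2%) and the joint fit of 24 samples 16 and 23 (5.39% and 53.2%). DESeq2 changes the size factors and the test together, and the joint fit keeps the scaling. The median of all rows tested was -1.58 as reported, 0.48 with TMM factors, -5.37 with all reads and 0.75 with DESeq2. With all reads, RTS2 (-0.66), YBR090C (-1.57), CSI2 (-1.50) and AXL2 (-1.97) were below 0, each above the median of all rows of -5.37 under that scaling. The 9 rises were also among the calls of TMM, DESeq2 and the joint fit. Leaving out 1 sample gave 4 to 11 higher and 2 to 18 lower, where 0.651% to 3.6% and 13.3% to 45.4% of all rows were called. Without the first, the second or the third generation 0 library these were 4 and 3, 4 and 2, and 4 and 3, and without the first, the second or the third generation 10 library 16, 14 and 18 were lower.

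In BY4743 22 members were called higher and 11 lower (18.2% and 19.5% of all rows tested). The joint fit, whose spread is set by all strains, called 0 and 0 (0.0237% and 1.64% of all rows). In the fit of BY4743 alone 38 of the 78 had an unadjusted p under 0.05 (48.7%, against 48.7% of all rows kept). Leaving out 1 sample gave 13 to 32 higher and 5 to 12 lower, where 9.28% to 26.8% and 12.5% to 25.7% of all rows were called. Without the first, the second or the third generation 0 library these were 13 and 5, 14 and 6, and 14 and 6. For the difference between strains 9 were called above and 10 below 0 (2.57% and 30.7% of all rows tested). TMM gave 19 and 3 (7.64% and 13.1% of all rows), all reads 2 and 63 (0.5% and 90.1%) and DESeq2 36 and 5 (20.8% and 16.6%). The joint fit gave 14 and 16 (3.68% and 38.6%) and voom 7 and 0 (2.05% and 0.357%). Leaving out 1 sample gave 5 to 15 above and 9 to 28 below, where 1.88% to 5.37% and 24.9% to 53.8% of all rows were called. Called above 0 were 5 without any 1 generation 0 library of NCYC3290 or without the first or the second generation 10 library of BY4743. Without the first, the second or the third generation 10 library of NCYC3290, 15 and 28, 15 and 22, and 14 and 26 were called above and below 0.

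The main fits did not pair samples by replicate number. Deviations of generation 10 and generation 0 samples with the same number had correlations of -0.40 to 0.098, and 1 of 12 correlated best with its own number. Such correlations cannot show whether samples with the same number came from the same culture. With the replicate number as a block the counts were 4 and 7 in NCYC3290 (1.2% and 26.5% of all rows) and 18 and 7 in BY4743 (14.2% and 17.3%). For the difference they were 4 and 10 (1.69% and 28.8%).

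The rule itself gave 78 members, 155 with TMM-scaled totals (67 shared), 2 with all reads, 45 with a YPS128 limit of 1.2, and 73 to 162 with 1 YPS128 or BC187 sample left out, 162 being without the second generation 10 sample of YPS128. The members' median in NCYC3290 exceeded that of all rows by 1.27 and by 0.93 to 1.59 without 1 sample. All reads gave 0.059 over the 2 members that scaling leaves. With the same 78 members, a setting added after seeing the data, it was 0.94 with all reads and 1.31 with TMM-scaled totals. In BY4743 the excess of 0.084 was 0.104 with TMM-scaled totals and members chosen again, -0.64 over the 2 members left with all reads, 0.084 with the same 78 members under either scaling, and 0.074 to 0.13 without 1 sample, the highest being without the second generation 0 sample of YPS128. Depth limits NCYC3290 most, where 11 members had at most 3 reads in the second generation 10 sample.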
